A study of Mus musculus with 11 samples.

Results

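In all, 10 genes of growth factor signalling were followed in sorted mouse neonatal lung fibroblasts: the platelet-derived growth factor (PDGF) receptors Pdgfra and Pdgfrb and the ligand Pdgfa, the fibroblast growth factors Fgf2, Fgf7 and Fgf10 with the receptors Fgfr1 and Fgfr2, the hepatocyte growth factor Hgf, and Vegfd, which encodes vascular endothelial growth factor D. They were taken by symbol from the deposited table, in which all 10 of the 10 listed genes, among 32868 named genes, had a single entry. The study profiled bulk RNA of primary fibroblasts from the lungs of newborn mice, either wild type (WT) or PAD2KO, the label for loss of peptidylarginine deiminase 2, an enzyme that turns arginine residues of proteins into citrulline. The 11 libraries came in 2 labelled batches. Batch 1 had WT 1, WT 3 and WT 4 beside PAD2KO 1, PAD2KO 2 and PAD2KO 3. Batch 2 had WT 5, WT 6 and WT 7 beside PAD2KO 6 and PAD2KO 7. The labels give neither the strain, the sex and exact age of the mice, the deleted part of Padi2, the sorting gate nor what a batch was. The title of the series speaks of TNFa, but no label of these libraries names a treatment, so whether any cells received it cannot be said from the sources used here.

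PDGF, FGF, HGF and VEGF ligands bind receptor tyrosine kinases at the cell surface, which then switch on the RAS-MAPK and PI3K-AKT pathways. In the lung, mesenchymal cells read PDGF-A through PDGFRA, and they send FGF7, FGF10 and HGF to the epithelium, where FGFR2 (in its epithelial splice form) and MET are the receptors. VEGF-D acts on endothelial cells of lymphatic and blood vessels, mainly through VEGFR3, the product of Flt4. FGFs and several other ligands are held near the cell surface by heparan sulfate chains.

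Of the 10 genes, Vegfd, Fgf7 and Hgf differed most between the batches in WT, so the bases before their start sites are shown for reference. They are RefSeq's, on GRCm38.p6, a build other than the GRCm39 that the submitters' processing notes name. Each line is 250 bases that end at the base before a transcription start, read 5′ to 3′ on the plus strand, the strand of all 3 genes, and Hgf has 2 listed starts. The windows are chrX:164373272-164373521 for Vegfd, chr2:126034408-126034657 for Fgf7, and chr5:16553245-16553494 and chr5:16553651-16553900 for Hgf. Capitals mark a match to a searched motif.
Vegfd: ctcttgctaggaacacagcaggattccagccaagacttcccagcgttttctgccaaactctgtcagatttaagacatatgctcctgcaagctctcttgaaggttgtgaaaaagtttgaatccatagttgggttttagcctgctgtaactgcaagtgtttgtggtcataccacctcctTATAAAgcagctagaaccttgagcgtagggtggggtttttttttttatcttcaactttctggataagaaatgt
Fgf7: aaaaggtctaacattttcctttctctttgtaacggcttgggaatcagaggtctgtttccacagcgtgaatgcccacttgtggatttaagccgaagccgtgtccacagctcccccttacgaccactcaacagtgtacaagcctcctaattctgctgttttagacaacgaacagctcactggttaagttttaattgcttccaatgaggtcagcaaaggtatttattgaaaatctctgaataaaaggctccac
Hgf, first start: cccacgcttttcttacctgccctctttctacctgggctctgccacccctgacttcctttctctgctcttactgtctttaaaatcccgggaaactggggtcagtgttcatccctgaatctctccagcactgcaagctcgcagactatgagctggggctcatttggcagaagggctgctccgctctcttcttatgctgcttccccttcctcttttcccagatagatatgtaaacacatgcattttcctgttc
Hgf, second start: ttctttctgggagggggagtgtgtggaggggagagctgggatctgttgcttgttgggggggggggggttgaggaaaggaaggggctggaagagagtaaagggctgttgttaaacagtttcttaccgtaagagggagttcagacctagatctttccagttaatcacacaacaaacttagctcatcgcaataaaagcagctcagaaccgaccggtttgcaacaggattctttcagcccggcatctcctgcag
Both strands were searched for AP-1 (TGANTCA), a shortened cAMP response element (TGACG), C/EBP (TTGCNNAA), NF-kB, ETS (CCGGAA), a GC box (GGGCGG) and a TATA box (TATAAA). The match found in these 4 windows was the TATA box letters in Vegfd, starting at base -73 from the start site, letters that 12.37% of 32851 promoter windows of the same length hold. No overlap between motifs arose there. For the other motifs, the windows lack these letters, which says nothing about binding elsewhere. RefSeq's promoter table had entries for 8 of the 10 genes, all but Pdgfrb and Fgfr1.

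Libraries held from 962633 (WT 7) to 1421243 (PAD2KO 2) counts in named genes, and the 10 genes had 16 to 981 counts in a library. Levels are given in CPM, the count of a gene relative to all counts of named genes after TMM scaling, and 3 counts, the limit that 0 counts allow, were worth 2.11 to 3.12 CPM. That floor covers counting error only. All 10 genes passed the filter on low counts that left 10731 genes for testing. Padi2 had 3 counts over the 6 WT and 9 over the 5 PAD2KO libraries, too few to check the genotype labels. WT 5 and WT 6 were the most alike pair within a group (chi-square per degree of freedom 1.51, against 2.10 to 3.18 in the other pairs). Their difference exceeded counting noise, so they stayed 2 libraries. The labels do not say whether the libraries of a group stem from different animals or cultures, and p-values therefore cover variation from library to library, part of which may be technical.

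The labelled cell type was checked on its markers. All 8 fibroblast markers were detected, and their summed level was 16236 to 21577 CPM in WT and 15758 to 16815 CPM in PAD2KO of batch 1, and 10714 to 11538 and 9452 to 10231 CPM in batch 2. Epithelial Nkx2-1, Sftpc and Krt5 had 0 counts and Epcam 1 count in all 11 libraries together, and 2 of 10 epithelial markers passed the filter, Krt18 with 314 counts and Krt19 with 98. Summed over the list, epithelial markers lay at 16.9 to 38.0 CPM in batch 1 and 31.7 to 47.8 CPM in batch 2, and Krt18 was called higher in batch 2 in PAD2KO (1.01, adjusted p = 0.0383). Endothelial Cdh5 had 5 counts, Tek 3, Pecam1 28 and Kdr 48, and 1 of 8 markers, Egfl7 with 105, passed the filter. Their sum was 7.86 to 22.9 CPM over all libraries. Smooth muscle and pericyte markers were present, with Higd1b at 0 and Acta2, the smooth muscle actin that myofibroblasts also make, at a mean of 5119 CPM in WT of batch 1. In bulk RNA, fewer cells of a type and less RNA per cell cannot be told apart.

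Per length, as deposited TPM, the order of the genes by their median over the 11 libraries was Fgf7 (176 TPM), Pdgfra (145), Vegfd (109), Pdgfrb (61.1), Hgf (39.4), Fgf10 (38.1), Fgfr1 (32.7), Fgf2 (29.7), Fgfr2 (28.4) and Pdgfa (26.6). Over all libraries each range overlapped the next, but these ranges span both batches: Vegfd ran from 7.92 to 194 TPM, Fgf7 from 122 to 433 TPM and Pdgfra from 123 to 189 TPM. Within a batch the order differed and some neighbours were apart. In batch 1 Vegfd (median 149.8 TPM), Fgf7 (148) and Pdgfra (143) led with overlapping ranges. Pdgfra at 123 to 184 TPM lay wholly above Pdgfrb at 61.1 to 85.7 TPM, which lay wholly above Fgfr2, the next, at 17.5 to 59.5 TPM. In batch 2 Fgf7 at 351 to 433 TPM lay wholly above Pdgfra at 132 to 189 TPM, and Pdgfra wholly above Hgf, the next, at 55.8 to 104.5 TPM. Vegfd at 7.92 to 17.4 TPM was the lowest of the 10 there, wholly below Fgfr2 at 24.1 to 28.4 TPM. The other neighbours within a batch overlapped. TPM of Fgf2, Fgfr2 and Pdgfa carry an added uncertainty: the effective length the authors' table gives differed 2.95-fold, 2.48-fold and 2.28-fold between libraries, against 1.03-fold for Pdgfrb. In the GENCODE M21 annotation, exons of Fgf2 overlap those of Nudt6 on the other strand, exons of Fgfr2 overlap those of Ctbp2 on the same strand, and antisense or unclassified models overlap Pdgfra, Pdgfa, Fgf10, Fgfr1 and Hgf. Strand would not separate pairs on the same strand, such as Fgfr2 and Ctbp2, and the sources used here do not give whether counting used it. Reads that lie within the overlapping exons of such pairs therefore cannot be told apart here. Pdgfrb, Fgf7 and Vegfd had no overlapping exons of another gene.

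**Figure D1:**
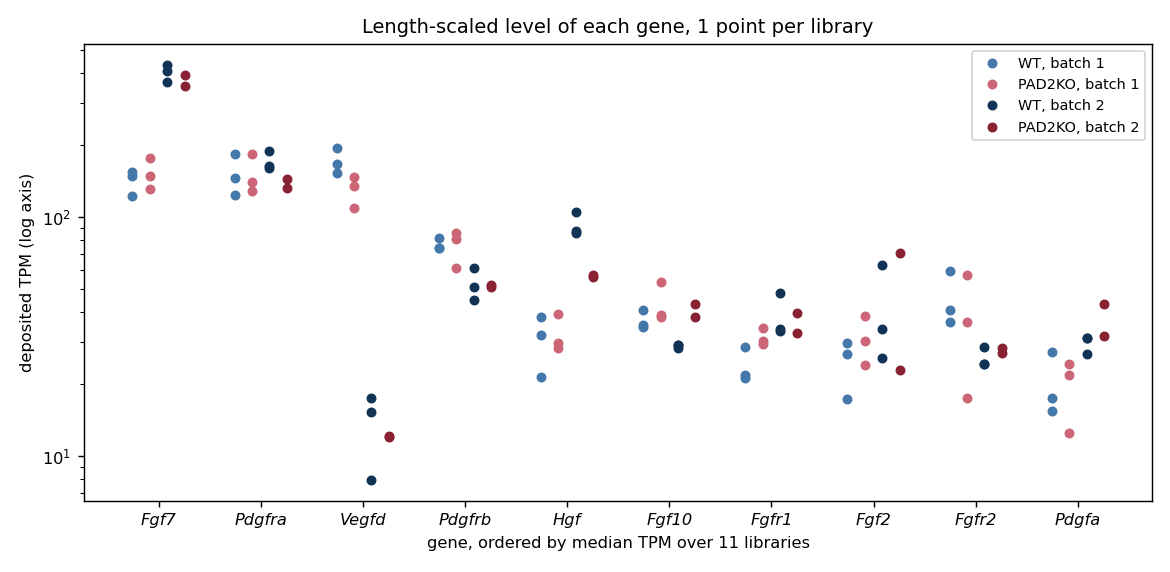
Deposited TPM (log axis) of the 10 genes, ordered by median, with a point per library coloured by genotype and batch. Vegfd is split between 7.92 TPM and 194 TPM by batch, and Pdgfra stays between 123 and 189 TPM.

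Batch 2 against batch 1 was the larger contrast for these genes, in either genotype. In WT, 6 of the 10 genes passed an adjusted p of 0.05 (quasi-likelihood test in edgeR, Benjamini-Hochberg adjustment over all genes), beside 21.6% of all 10731 genes. They were 3 higher, beside 11.5% of all genes, and 3 lower, beside 10.1%. In PAD2KO 5 of the 10 passed, beside 17.4% of all genes, with 2 higher (9.06% of all genes) and 3 lower (8.29%). At an unadjusted p under 0.05 the count was 7 in each genotype, beside 32.5% of all genes in WT and 29.5% in PAD2KO. Levels of the 2 batches did not overlap for 8 of the 10 genes in WT (36.1% of all genes) and for 7 of the 10 in PAD2KO (45.2%). The median difference over the 10 genes was 0.20 in WT and 0.18 in PAD2KO on the log2 scale, beside 0.00 and -0.02 over all genes. WT and PAD2KO give separate libraries to these comparisons, but each shares libraries with the genotype comparisons that follow. The 10 genes were chosen with earlier results of these data known, so their shares beside those of all genes are a description.

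Vegfd fell in batch 2 to a small part of its batch 1 level. WT libraries of batch 1 had 227, 276 and 238 CPM and PAD2KO libraries 206, 157 and 210 CPM. In batch 2 the WT libraries had 18.9, 12.5 and 27.5 CPM and the PAD2KO libraries 18.7 and 18.9 CPM, from 16 to 26 counts each. No batch 2 library came near any batch 1 library. The log2 difference was -3.70 in WT (SE 0.185, adjusted p = 3.57e-14), a level 12.95-fold lower, and -3.34 in PAD2KO (SE 0.218, adjusted p = 2.05e-11), a level 10.1-fold lower. Of 10731 genes, this was the 24th largest fall in WT and the 41st in PAD2KO.

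Fgf7, the keratinocyte growth factor, rose in batch 2. It stood at 167, 131 and 133 CPM in WT and at 170, 163 and 151 CPM in PAD2KO of batch 1. In batch 2 it stood at 441, 462 and 380 CPM in WT and at 439 and 365 CPM in PAD2KO. The lowest batch 2 library was above the highest of batch 1. The rise was 1.57 on the log2 scale in WT (SE 0.121, adjusted p = 1.08e-10), or 2.98-fold, and 1.32 in PAD2KO (SE 0.130, adjusted p = 3.29e-08), or 2.49-fold.

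Hgf, the ligand of MET and a growth and motility signal for epithelium, also rose. WT libraries had 62.2, 37.7 and 59.6 CPM in batch 1 and 159, 172 and 188 CPM in batch 2. PAD2KO libraries had 57.0, 68.8 and 56.4 CPM in batch 1 and 101 and 117 CPM in batch 2. In both genotypes the batches were apart, with the highest levels in WT of batch 2. The rise was 3.26-fold in WT (log2 1.70, SE 0.153, adjusted p = 1.94e-09) and 1.79-fold in PAD2KO (log2 0.84, SE 0.171, adjusted p = 0.000781).

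**Figure D2:**
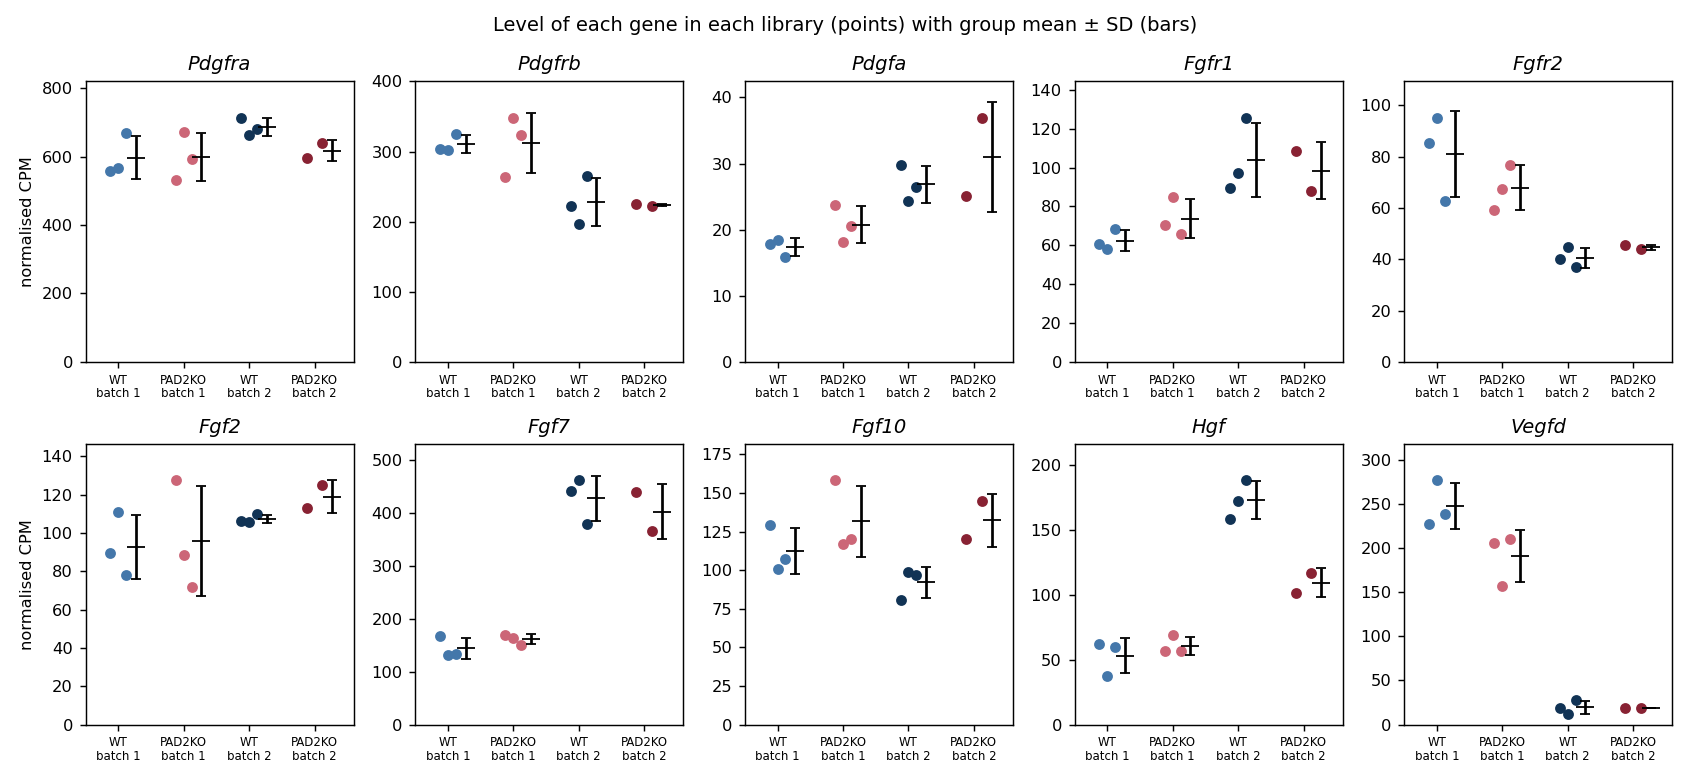
TMM-scaled CPM of the 10 genes, with a panel per gene, a point per library and bars for each group's mean ± SD. Vegfd is at 12.5 to 27.5 CPM in batch 2 against 157 to 276 CPM in batch 1, while Fgf7 and Hgf are higher in batch 2.

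The 2 other FGF ligands did not pass in either genotype with all libraries in the fit. Fgf10, an epithelial branching signal of lung mesenchyme, had 129, 101 and 107 CPM in WT of batch 1 and 80.8, 98.6 and 97.2 CPM in WT of batch 2, a log2 difference of -0.29 (95% interval -0.59 to 0.01, adjusted p = 0.167). In PAD2KO it had 158, 117 and 120.2 CPM in batch 1 and 120.01 and 145 CPM in batch 2, and the difference was 0.01 (-0.30 to 0.32, adjusted p = 0.971). Fgf2, the basic fibroblast growth factor, ranged from 71.8 to 127 CPM over all libraries, with differences of 0.20 (-0.14 to 0.55, adjusted p = 0.437) in WT and 0.32 (-0.06 to 0.70, adjusted p = 0.262) in PAD2KO. Without PAD2KO 1, whose 127 CPM was the highest of all libraries, the PAD2KO difference was 0.57 and passed (adjusted p = 0.0226), and with gene length as an offset the differences were 0.80 and 0.61 and did not pass (adjusted p = 0.245 and 0.47). As a ratio of TPM, Fgf7 to Fgf10 was 3.84 ± 0.328 in WT and 3.57 ± 0.936 in PAD2KO of batch 1 (SD, n = 3 and 3). It was 13.9 ± 1.20 and 9.20 ± 1.55 in batch 2 (SD, n = 3 and 2).

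In WT the FGF receptors went opposite ways. Fgfr2, which in its splice forms serves epithelium or mesenchyme, fell in WT from 85.5, 95.2 and 62.8 CPM to 40.02, 44.6 and 37.0 CPM (log2 -0.997, SE 0.175, adjusted p = 9.58e-05). In PAD2KO it fell from 59.3, 67.4 and 76.9 CPM to 45.4 and 44.0 CPM (log2 -0.60, SE 0.198, adjusted p = 0.0338). Every batch 2 library was below every batch 1 library. Fgfr1, the main FGF receptor of mesenchyme, rose in WT from 60.6, 58.3 and 68.3 CPM to 89.5, 97.1 and 126 CPM (log2 0.72, SE 0.154, adjusted p = 0.000885). In PAD2KO it had 70.4, 84.8 and 65.9 CPM and then 109 and 88.0 CPM, a difference of 0.41 (SE 0.167, adjusted p = 0.0911) that did not pass, although the libraries did not overlap. The interaction test of these 2 batch differences, the same as that of the genotype differences, gave -0.31 for Fgfr1 (adjusted p = 0.671), so the genotypes were not shown to differ in it. Without PAD2KO 2 the Fgfr1 difference in PAD2KO passed (0.53, adjusted p = 0.0469). With gene length as an offset the Fgfr2 falls did not pass (-0.73, adjusted p = 0.189 in WT and -0.28, adjusted p = 0.718 in PAD2KO), and in PAD2KO the call was also lost with DESeq2 (adjusted p = 0.122) and without PAD2KO 2, PAD2KO 3, PAD2KO 6 or PAD2KO 7.

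Of the PDGF receptors, Pdgfrb passed between batches and Pdgfra did not. Pdgfrb, best known from pericytes and smooth muscle and also made by fibroblasts, fell in WT from 304, 302 and 326 CPM to 223, 197 and 265 CPM (log2 -0.45, SE 0.1202, adjusted p = 0.00695). In PAD2KO it fell from 264, 348 and 323 CPM to 225 and 222 CPM (log2 -0.48, SE 0.135, adjusted p = 0.0134). These falls were small and rested on few libraries: the WT call was lost without WT 6 (-0.35, adjusted p = 0.0712), and the PAD2KO call was lost without PAD2KO 2, PAD2KO 6 or PAD2KO 7 and with gene length as an offset. Pdgfra, the receptor of PDGF-AA that marks lung fibroblasts, was at 557, 566 and 669 CPM in WT and 532, 672 and 592 CPM in PAD2KO of batch 1. In batch 2 it was at 714, 662 and 680 CPM and at 596 and 639 CPM. Its ranges overlapped, with differences of 0.20 (-0.02 to 0.42, adjusted p = 0.198) in WT and 0.04 (-0.20 to 0.29, adjusted p = 0.852) in PAD2KO. Pdgfa, the ligand, had the lowest group means of the 10 in CPM in batch 1, and only Vegfd was lower in batch 2. Pdgfa was at 15.9 to 23.7 CPM in batch 1 and 24.3 to 36.9 CPM in batch 2. Its batches did not overlap, but the differences of 0.62 in WT (SE 0.245, adjusted p = 0.0707) and 0.58 in PAD2KO (SE 0.256, adjusted p = 0.122) did not pass.

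**Figure D3:**
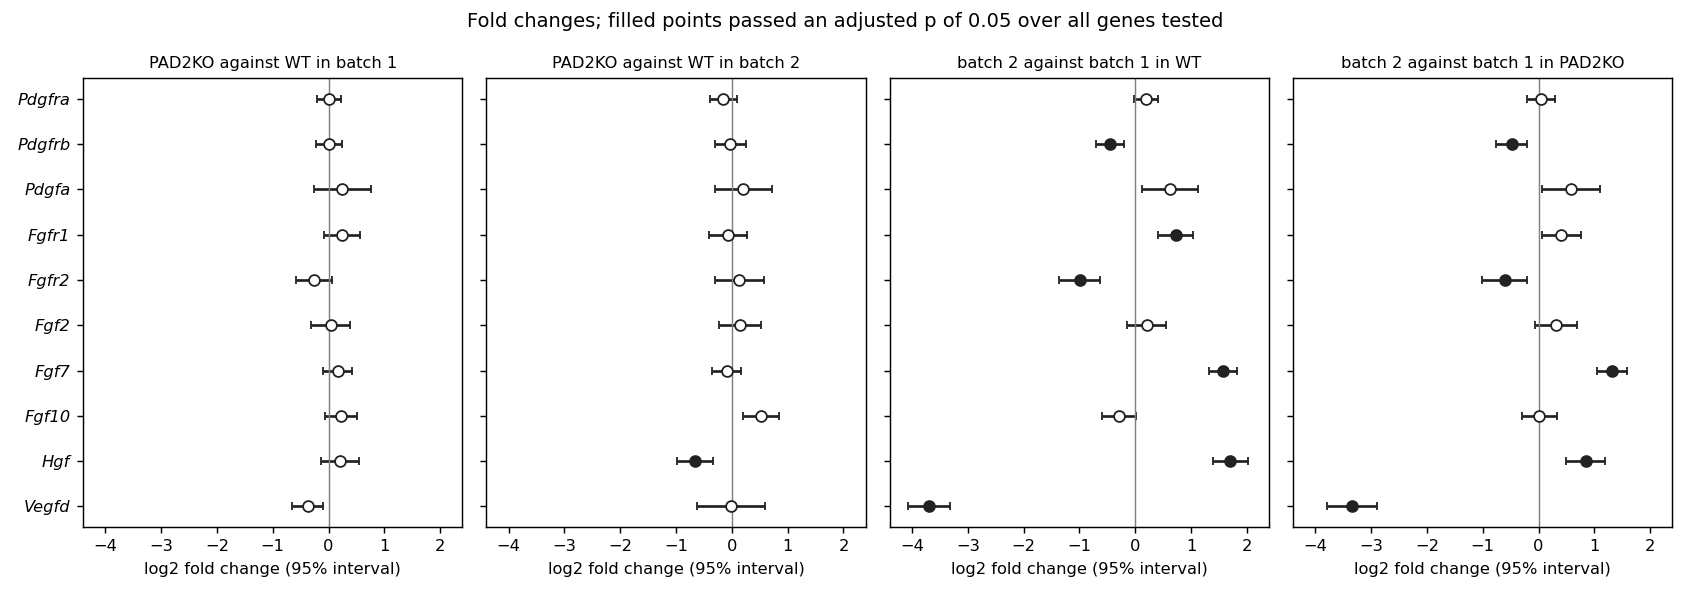
Log2 fold change of each of the 10 genes with its 95% interval, for PAD2KO against WT in each batch and for batch 2 against batch 1 in each genotype, filled where the adjusted p is under 0.05. Batch differences reach -3.70 for Vegfd and 1.70 for Hgf, while the genotype differences lie between -0.66 and 0.53.

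PAD2KO against WT was the comparison the study was designed for. In batch 1, 0 of the 10 genes passed (0.112% of all genes did), 1 of them had an unadjusted p under 0.05 (5.34% of all genes did), and DESeq2 called 0. That gene was Vegfd, at 227, 276 and 238 CPM in WT and 206, 157 and 210 CPM in PAD2KO. The genotypes did not overlap for Vegfd alone of the 10, where 11.4% of all genes did not, and its difference was -0.38 (95% interval -0.65 to -0.10, SE 0.133, unadjusted p = 0.00927, adjusted p = 0.611). In batch 2 the same gene differed by -0.02 (-0.63 to 0.59), at 16 to 26 counts a library. Mesothelial markers in batch 1 summed to 197 to 344 CPM in WT and 89.7 to 252 CPM in PAD2KO. These ranges overlapped, and 0 of 5 markers passed. Fibroblast markers summed to 16236 to 21577 CPM in WT and 15758 to 16815 CPM in PAD2KO, also overlapping, and 0 of 8 passed. The part of either cell type in the Vegfd difference was not tested.

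In batch 2, 1 of the 10 genes passed, beside 2.92% of all genes, and it was Hgf, lower in PAD2KO. The WT libraries had 159, 172 and 188 CPM and the PAD2KO libraries 101 and 117 CPM, with no overlap. The level was 1.58-fold lower (log2 -0.66, 95% interval -0.98 to -0.33, SE 0.159, adjusted p = 0.0190). DESeq2 called 0 of the 10 here, with Hgf at -0.65 and adjusted p = 0.0570, and the call was also lost with gene length as an offset (adjusted p = 0.184) and without WT 7 (adjusted p = 0.0599), PAD2KO 6 (0.165) or PAD2KO 7 (0.121). In batch 1 Hgf did not pass, at 0.20 (-0.14 to 0.55, adjusted p = 0.965), a value that came to 0.00 without WT 3, whose 37.7 CPM was the lowest of all libraries. The difference between the 2 genotype differences was -0.86 (SE 0.232, adjusted p = 0.0595 in edgeR) and did not pass.

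Beside Hgf, Fgf10 had an unadjusted p under 0.05 in batch 2, which makes 2 of the 10 genes where 14.0% of all genes did. It had 80.8, 98.6 and 97.2 CPM in WT and 120.01 and 145 CPM in PAD2KO, groups that did not overlap. Its difference was 0.53 (95% interval 0.20 to 0.85, SE 0.159, adjusted p = 0.0710), and it passed without PAD2KO 1 (adjusted p = 0.0462), a library of the other batch. In batch 1 its difference was 0.23 (-0.06 to 0.51, adjusted p = 0.929). Groups also did not overlap in batch 2 for Fgf2, Hgf and Pdgfra, so for 4 of the 10 genes, where 30.6% of all genes did not overlap. Pdgfra differed by -0.15 (interval -0.40 to 0.09, adjusted p = 0.633) and Fgf2 differed by 0.15 (-0.23 to 0.53, adjusted p = 0.799).

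For the remaining genes the genotype differences were small. Their intervals included 0, and many allow moderate effects. In batch 1 this was mainly in 1 direction for Fgf7 (-0.09 to 0.42), Fgfr1 (-0.08 to 0.57) and Fgfr2 (-0.59 to 0.07). The differences in batch 1 were 0.17 for Fgf7, 0.25 for Fgfr1, -0.26 for Fgfr2, 0.25 for Pdgfa, 0.04 for Fgf2, 0.00 for Pdgfra and 0.01 for Pdgfrb. In batch 2 they were -0.09 for Fgf7, -0.07 for Fgfr1, 0.13 for Fgfr2, 0.21 for Pdgfa and -0.03 for Pdgfrb. The intervals were widest for Pdgfa, with its 20 to 47 counts (-0.27 to 0.76 in batch 1), and narrowest for Pdgfra (-0.21 to 0.22). With genotype fitted over both batches and batch as a term, 0 of the 10 passed (0.158% of all genes did), 2 had an unadjusted p under 0.05 (7.61% of all genes did) and DESeq2 called 0. They were Fgf10 at 0.36 (SE 0.111, adjusted p = 0.358) and Vegfd at -0.31 (SE 0.129, adjusted p = 0.584). For the interaction of genotype and batch 0 of the 10 passed (1.44% of all genes), with 1, Hgf, at an unadjusted p under 0.05 (11.2% of all genes) and 0 by DESeq2. The median genotype difference of the 10 genes was 0.10 in batch 1 and -0.02 in batch 2, beside 0.00 and -0.01 over all genes.

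Receptors and ligands that pair with these genes were mostly scarce. Of 19 other FGF ligands, 18 were under the filter, 9 of them at 0 counts, and none of the rest had over 6 counts in a library. The one tested, Fgf1, was called higher in batch 2 in PAD2KO at 1.60 (adjusted p = 0.0497). Its mean went from 2.67 CPM, near the level that 0 counts allow, to 8.40 CPM. Fgfr3 had 9 and Fgfr4 41 counts in all 11 libraries together. Pdgfb had 0 counts. Of 8 listed genes of HGF reception and activation, 3 were tested and none passed. Among these Met, the HGF receptor, was at 17.3 ± 3.26 (WT) and 17.1 ± 3.99 CPM (PAD2KO) in batch 1 (SD, n = 3 and 3) and at 17.6 ± 1.297 and 17.5 ± 5.26 CPM in batch 2 (SD, n = 3 and 2). Of 4 tested VEGF receptor genes, 1 rose and 2 fell in batch 2 in WT (3 of 4, beside 21.6% of all genes), and 1 rose and 1 fell in PAD2KO (2 of 4, beside 17.4%). Flt4, the VEGF-D receptor, rose in batch 2, opposite to Vegfd, by 0.81 in WT (SE 0.256, adjusted p = 0.0230) and 0.88 in PAD2KO (SE 0.275, adjusted p = 0.0272). Kdr, another VEGF receptor gene, had 48 counts in all and was under the filter. Nrp1, a co-receptor of VEGFs, fell in batch 2 by 1.48 in WT (adjusted p = 2.71e-08) and by 0.92 in PAD2KO (adjusted p = 0.000151). Within batch 2 it was 0.66 higher in PAD2KO than in WT (SE 0.164, adjusted p = 0.0246). Nrp2, the other listed gene that fell in WT, differed between batches by -0.49 there (adjusted p = 0.0057). Its PAD2KO difference of -0.15 did not pass (adjusted p = 0.525). Of 3 tested VEGF ligands other than Vegfd, 1 passed between batches in WT and 0 in PAD2KO: Pgf, the placental growth factor, was 0.84 higher in batch 2 in WT (adjusted p = 0.0167). Of 2 tested PDGF ligands other than Pdgfa, 1 passed in WT and 0 in PAD2KO: Pdgfd was lower in batch 2 in WT (-1.71, adjusted p = 0.0361), at 7.57 and 2.42 CPM.

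Genes downstream of receptor tyrosine kinases differed between batches mostly upwards. Of 22 listed feedback and target genes, all tested, 10 rose and 1 fell in WT, where 11.5% of all genes rose and 10.1% fell. In PAD2KO 11 rose and 2 fell, where 9.06% of all genes rose and 8.29% fell. The medians were 0.69 and 0.82, beside 0.00 and -0.02 over all genes. Dusp6, the phosphatase that acts on ERK, went from 101 ± 18.4 to 215 ± 14.8 CPM in WT (log2 1.09, adjusted p = 2.62e-07, SD, n = 3 and 3). In PAD2KO it went from 90.4 ± 7.08 to 312 ± 18.5 CPM (log2 1.78, adjusted p = 3.12e-10, SD, n = 3 and 2). Ier3, an immediate early gene, rose by 2.20 in WT and 1.73 in PAD2KO. Likewise Spry4, a Sprouty inhibitor of the pathway, rose by 1.32 and 1.48 and Ccnd1, cyclin D1, rose by 0.88 and 1.77. In batch 2, Dusp6 was 0.54 higher in PAD2KO than in WT (adjusted p = 0.0209) and Ier2, another immediate early gene, 0.89 higher (adjusted p = 0.0180), so 2 of the 22 passed, beside 2.92% of all genes. In batch 1, 0 of the 22 passed, beside 0.112%. The test of the difference between the batches passed for Ier2 (1.25, adjusted p = 0.0229) and not for Dusp6 (0.69, adjusted p = 0.0651). As background, these genes also answer to signals other than the ligands named here.

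Among heparan sulfate genes and intracellular kinases, some rose and some fell in WT. Of 19 heparan sulfate carriers and enzymes, 2 rose and 5 fell in WT, where 11.5% of all genes rose and 10.1% fell. In PAD2KO 0 rose and 2 fell, where 9.06% of all genes rose and 8.29% fell. Gpc3, the cell surface proteoglycan glypican 3, fell by 3.30 in WT (adjusted p = 3.12e-13) and by 2.00 in PAD2KO (adjusted p = 6.85e-08), and these falls differed from each other (interaction 1.3002, adjusted p = 0.0267). Sulf1, which trims sulfate from heparan sulfate, fell by 1.54 and 1.66. Sdc1, syndecan 1, rose in WT from 106 ± 13.4 to 267 ± 16.6 CPM (SD, n = 3 and 3), and its PAD2KO difference of 0.38 did not pass (adjusted p = 0.0798, interaction -0.95, adjusted p = 0.0101). In batch 2, Sdc1 was 0.79 lower in PAD2KO than in WT (-0.79, adjusted p = 0.00158). Of 29 adaptors and kinases tested, 2 rose and 5 fell in WT and 3 rose and 2 fell in PAD2KO, beside the same shares of all genes (21.6% and 17.4% in either direction). Map2k1, the kinase MEK1, rose by 0.86 and 0.60. The ligand, receptor, heparan sulfate, feedback and kinase lists held 84 tested genes. Of these, 35.7% passed in WT and 27.4% in PAD2KO, beside 21.6% and 17.4% of all genes. All these lists, the feedback genes included, were chosen with earlier results of these data known. Their shares beside those of all genes are therefore a description and no test.

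**Figure D4:**
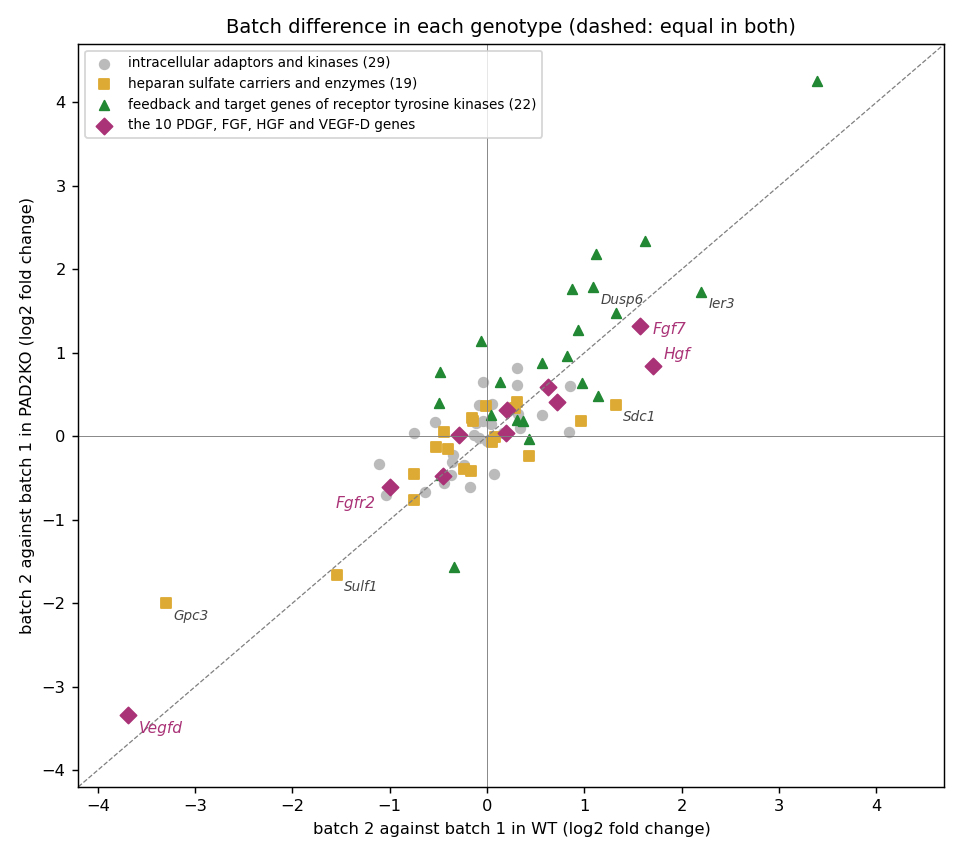
Log2 fold change of batch 2 against batch 1 in WT (horizontal) and in PAD2KO (vertical) for the 10 genes (diamonds) and 3 lists of pathway genes, with a dashed line of equal difference. Vegfd (-3.70 and -3.34) lies far down beside Gpc3, and Fgf7 (1.57 and 1.32) and Hgf (1.70 and 0.84) lie with the feedback genes at the upper right.

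Markers of fibroblasts and of other cells differed between the batches too. Of the 8 fibroblast markers, 0 rose and 3 fell in batch 2 in WT, where 11.5% of all genes rose and 10.1% fell. In PAD2KO 2 rose and 4 fell, where 9.06% of all genes rose and 8.29% fell. Smooth muscle and pericyte markers (8 of 11 tested, 5 lower in WT and 2 in PAD2KO) summed to 6313 to 6868 CPM in WT and 4783 to 7257 CPM in PAD2KO of batch 1, and to 1630 to 1948 and 3819 to 4831 CPM in batch 2. Over all genes 10.1% were lower in WT and 8.29% in PAD2KO. Acta2 made up most of the sum, with a mean of 5119 of 6609 CPM in WT of batch 1. Not every marker fell: in WT, mean CPM of Kcnj8 (178 to 222) and Abcc9 (13.9 to 14.7) lay higher in batch 2 without passing. Of 5 mesothelial markers, all tested, 3 were lower in WT and 1 in PAD2KO, beside the same shares. Their sum was 197 to 344 CPM in WT and 89.7 to 252 CPM in PAD2KO of batch 1. In batch 2 it was 51.8 to 89.5 and 49.5 to 90.0 CPM. Here too some lay higher in batch 2 without passing. Mean CPM of Krt19 went from 4.19 to 9.06 in WT and from 7.04 to 7.96 in PAD2KO. That of Msln went from 7.03 to 7.60 in PAD2KO. Within batch 2, 1 of the 5 was higher in PAD2KO than in WT, beside 2.92% of all genes. Of 9 immune markers, 3 were tested and 0 called by edgeR between batches. Their sum was 15.9 to 57.5 CPM in WT and 20.9 to 51.4 CPM in PAD2KO of batch 1. In batch 2 it was 40.7 to 230 and 45.6 to 75.4 CPM, with Cd52 at 0. The 230 CPM was that of WT 7, where the other WT libraries of batch 2 had 40.7 and 68.1 CPM. WT 7 also had the highest Hgf level of all libraries, and without it the lower Hgf of PAD2KO in batch 2 did not pass (adjusted p = 0.0599). In batch 2 Acta2 was 1.49 higher in PAD2KO than in WT (adjusted p = 3.25e-05), in the same libraries in which Hgf was lower. Of the 8 tested smooth muscle and pericyte markers, 3 were higher and 0 lower, beside 2.92% of all genes. Mean CPM of Myh11, Des, Cnn1 and Mcam also lay higher in PAD2KO. That of Kcnj8 (222 in WT, 163 in PAD2KO), Notch3 (12.9 and 5.17) and Abcc9 (14.7 and 11.2) lay lower. Between the genotypes of batch 2, 1 of the 8 fibroblast markers was higher and 2 were lower in PAD2KO than in WT. Thy1 was higher (0.85, adjusted p = 0.00656), from a mean of 69.8 CPM in WT to 125 CPM in PAD2KO, and Dcn and Col3a1 were lower (-1.56 and -0.55, adjusted p = 0.00920 and 0.0114). Col1a1 (0.33) and Vim (0.23) lay higher without passing, and Fn1 (-0.27), Col1a2 (-0.19) and Lum (-1.27) lower without passing. The part of these cell types in the differences of Vegfd, Fgf7, Hgf and the receptors was not tested. Lipofibroblasts are lipid-laden cells to which FGF10 is linked. Of 7 tested genes of their list, 2 rose and 2 fell in WT and 1 rose and 2 fell in PAD2KO (21.6% and 17.4% of all genes passed). Limch1 fell by 2.71 and 1.155, Plin2 rose by 0.91 and 0.56, and Tcf21 went from 10.7 and 9.74 CPM in batch 1 to 0.970 and 0.786 CPM in batch 2, which is under the level that 0 counts allow in a library.

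Genes whose log2 CPM followed 4 of the 10 most closely over the 11 libraries were found among 8070 genes whose mean log2 CPM was 4 or more. For Fgf7 they were Il11 (Pearson r 0.99), Nr4a2 (0.99) and Mdm2 (0.99), and for Vegfd Fbn1 (0.99), Adh1 (0.99) and Dag1 (0.98). For Hgf they were Gpi1 (0.97), Capg (0.97) and Gstp1 (0.97), and for Pdgfrb Arhgef25 (0.95), Dapk1 (0.95) and Slc1a3 (0.95). The libraries fall into 2 batches, so any gene that differs between batches ranks high here, and these values are a description.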

How the data were processed

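RNA of 11 libraries (6 WT, 5 PAD2KO) was made into SMARTer libraries in a SmartSeq2 workflow, per the labels' protocols, without molecular identifiers being named. The submitters' processing notes name build GRCm39 and the tools Salmon 1.3.2, fastp and DESeq2 1.46.0, without roles. Annotation and strand setting are not given in the sources used here. Per gene, the authors deposited estimated counts, TPM (scaled to length and library total) and effective lengths, per the file headers. Of 56065 entries, 23133 without a symbol (3.80% to 6.40% of counts) stayed out, and the rest were summed to 32868 symbols and rounded.

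The main test was edgeR 4.0.16 in R 4.3.3 (TMM, filterByExpr on 4 groups, robust quasi-likelihood fit with 4 group means, Benjamini-Hochberg over 10731 genes, threshold 0.05). All 11 libraries shared an estimate of the spread, with a common biological coefficient of variation of 0.1199. Genotype over both batches was fitted with batch as a term. SE is the log2 fold change divided by the root of F, and intervals are 95%. The effective lengths entered only as an offset in an alternative. DESeq2 1.42.0 was another alternative. The tests were checked on simulated counts.

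The members and gene lists were chosen with earlier results of these data known. Named genes were all 10 members, at most 3 genes past the threshold per list and comparison by p (or 2 by p where none passed), defining cell type markers, and the 3 genes most like a member. Genes outside this rule (Fgfr3, Fgfr4, Pdgfb, Met, Kdr, Padi2) were named after their values were seen.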

Additional observations from a re-analysis of the deposited data

Results flagged for a closer look

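For 2 genes every PAD2KO library lay on one side of the WT mean in batch 1 and on the other side in batch 2. Hgf was higher in all 3 PAD2KO libraries than the WT mean of batch 1 and lower in both of batch 2, and its genotype differences differed by -0.86 on the log2 scale (unadjusted p = 0.000954, adjusted p = 0.0595, edgeR). Fgfr2 was lower in all 3 PAD2KO libraries of batch 1 and higher in both of batch 2, and the difference was 0.39 (unadjusted p = 0.152, adjusted p = 0.634). Neither passed the test of the difference itself. How many of all genes show this pattern was not counted. In batch 1 the Hgf pattern rested on WT 3, at 37.7 CPM. WT 1 and WT 4, at 62.2 and 59.6 CPM, lay above PAD2KO 1 and PAD2KO 3, at 57.0 and 56.4 CPM. PAD2KO 2, at 68.8 CPM, lay above the WT libraries. Without WT 3 the batch 1 difference of Hgf was 0.00.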

How the results depend on the processing

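Vegfd, Fgf7 and Hgf passed in both batch comparisons under all 16 alternatives. For PAD2KO against WT in batch 2, the count of members called was 1. It was 2 with no filter on low counts (Fgf10 and Hgf), 0 with gene length offsets, 0 with DESeq2, and 0 to 2 when each library was left out. For batch 2 against batch 1 in PAD2KO the count of 5 became 3 with gene length offsets and 3 to 6 when each library was left out, the lowest without PAD2KO 6 or PAD2KO 7. For the interaction the count of 0 became 1 (Hgf) with no filter and 0 to 1 when each library was left out, the highest without WT 1. Replicate numbers gave no sign of pairing (correlation of same-numbered libraries 0.013 to 0.036). With 2 or 3 libraries in a group, this cannot show that the samples were unpaired. With a replicate block the members called stayed at 0 in batch 1, 1 in batch 2, 0 for the interaction and 0 over both batches. The batch comparisons share no replicate numbers, so no paired fit could be had. Differences that had not passed changed sign in 50 pairings of a gene's comparison with an alternative, with no call in any of them. Not all of them lay near 0: the main values included 0.25 for Pdgfa in batch 1 and 0.21 for Pdgfa in batch 2. As libraries were left out, batch 1 genotype values spanned -0.092 to 0.099 for Pdgfra, -0.084 to 0.113 for Pdgfrb, -0.21 to 0.21 for Fgf2 and -0.00024 to 0.34 for Hgf. Those of batch 2 spanned -0.121 to 0.089 for Pdgfrb, -0.10 to 0.47 for Pdgfa, -0.219 to 0.039 for Fgf7, -0.22 to 0.08 for Fgfr1 and -0.27 to 0.24 for Vegfd. In the batch comparison of PAD2KO they spanned -0.035 to 0.142 for Pdgfra and -0.13 to 0.16 for Fgf10, for the interaction -0.14 to 0.08 for Pdgfrb, -0.34 to 0.22 for Pdgfa and -0.058 to 0.364 for Fgf2, and over both batches -0.055 to 0.046 for Pdgfrb and -0.025 to 0.179 for Fgf2. With gene length offsets the sign changed to -0.009 for Pdgfrb and -0.024 for Pdgfa in batch 1, to -0.044 for Pdgfra and -0.012 for Fgf10 between batches in PAD2KO, to 0.367 for Pdgfa and -0.185 for Fgf2 in the interaction, and to -0.004 for Fgf7 over both batches. With the replicate block it changed to -0.001 for Pdgfra, -0.05 for Pdgfrb and -0.045 for Fgf2 in batch 1 and to 0.017 for Pdgfrb in the interaction. With no filter it changed to 0.006 for Pdgfrb and 0.009 for Vegfd in batch 2 and to 0.011 for Pdgfrb over both batches, and without the batch term to 0.038 for Pdgfrb and -0.149 for Fgf7. The cause of these changes was not tested.

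Counts over all genes moved more. With gene length offsets they were 2, 91, 1411, 858, 26 and 2, against 12 and 313 for the genotype in batches 1 and 2, 2313 and 1862 for batch in WT and PAD2KO, 155 for the interaction and 17 over both batches. The share of calls that were higher went from 16.7% to 50.0% in batch 1 and from 11.8% to 0% over both batches, on 2 calls each. With no filter the counts were 58 and 529 for the genotype in each batch, 323 for the interaction and 142 over both batches. DESeq2 gave 1216 for batch in PAD2KO and 31 over both batches, the block gave 101 for the interaction and 8 over both batches, batch 1 alone gave 22, and leaving out the batch term gave 4. As each library was left out, the genotype counts ran from 3 (without WT 3) to 20 (without WT 7) in batch 1 and from 61 (without PAD2KO 7) to 373 (without PAD2KO 6) in batch 2, with 195 without WT 7. In batch 1 they were also 4 without PAD2KO 2, 5 without WT 4 and 7 without PAD2KO 3. For batch they ran from 1815 to 2377 in WT and from 1074 (without PAD2KO 7; 1188 without PAD2KO 6) to 1995 in PAD2KO. For the interaction they ran from 34 (without PAD2KO 7) to 222 (without PAD2KO 6), with 91 without WT 3 and 97 without PAD2KO 3, and over both batches from 8 (without WT 3) to 25 (without WT 1). Depth limits Pdgfa (20 to 47 counts) and Vegfd in batch 2 (16 to 26 counts).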
